A study of Mus musculus with 5 samples.

Results

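The 5330 gene symbols that appeared in both the H3K4me3 list and the H3K27me3 list of adult mouse striatal neurons were compared by how the regions of both marks lie against each other. They are 27.7% of the 19231 symbols found in any of the deposited lists, 35.4% of the 15052 symbols of the H3K4me3 list and 56.3% of the 9471 symbols of the H3K27me3 list. A symbol was a member when it had a line in both lists, whatever its scores. For each symbol the pair of regions sharing the most bases was taken, or the closest pair where none shared a base.

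The chromatin came from striata of 8-week-old C57BL/6 mice, from nuclei sorted on NeuN and labelled as medium spiny neurons, the main output neurons of the striatum, which release GABA. It was immunoprecipitated with antibodies against H3K4me3, H3K27me3, H3K27ac and RNA polymerase II (Pol II), with 1 library for each antibody and 1 input library without antibody. No genotype, treatment or transgene separates the libraries. NeuN is found in neurons in general, and the libraries pool neurons of the direct and the indirect pathway, so 2 marks on the same allele and 2 marks in different nuclei cannot be told apart.

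H3K4me3 is placed at CpG-rich promoters by the SET1 and MLL methyltransferases and is strongest at transcribed genes. H3K27me3 is placed by Polycomb repressive complex 2 and spreads over wide domains at genes held silent, above all those of developmental transcription factors. Promoters that carry both marks are called bivalent and were first described in embryonic stem cells. H3K27ac, which occupies the same lysine as H3K27me3, and Pol II are used here as marks of active promoters.

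Of 12 marker genes of medium spiny neurons, all had H3K4me3, H3K27ac and Pol II regions and 5 also had H3K27me3. All 4 interneuron markers, all 4 vessel markers, 2 of 4 astrocyte markers and 1 of 4 microglia markers had H3K4me3, and H3K27ac and Pol II were listed for none of these 16. Of 4 oligodendrocyte markers 3 had H3K4me3, and Mbp, which encodes myelin basic protein, had H3K27ac and Pol II as well. Whether the H3K4me3 at these markers came from other cells in the sort was not tested.

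Regions were sorted into 5 arrangements. An H3K4me3 region is nested when it lies wholly inside the H3K27me3 region, enclosing when it wholly holds it, staggered when both share bases but each runs out beyond the other, flanking when they share no base and lie at most 3 kb from each other, and apart otherwise. Foxc1, a forkhead factor of mesenchyme, and Drd2, the dopamine receptor of indirect-pathway neurons, were nested. Slc32a1, the vesicular GABA transporter, was enclosing. Tac1, the substance P precursor of direct-pathway neurons, was staggered, and Kcnc1, a voltage-gated potassium channel, was flanking. The promoters of these 5 genes are shown because each stands for one arrangement, with Foxc1 lacking H3K27ac and Pol II regions and Drd2 holding both. Each runs from 250 bases before to 50 after the start, from RefSeq on build GRCm38.p6, plus strand, at chr13:31806396-31806695, chr9:49340153-49340452, chr2:158610508-158610807, chr6:7554811-7555110 and chr7:46396218-46396517 in the order of the lines. The capitals mark CG dinucleotides, which read the same on both strands.
Foxc1: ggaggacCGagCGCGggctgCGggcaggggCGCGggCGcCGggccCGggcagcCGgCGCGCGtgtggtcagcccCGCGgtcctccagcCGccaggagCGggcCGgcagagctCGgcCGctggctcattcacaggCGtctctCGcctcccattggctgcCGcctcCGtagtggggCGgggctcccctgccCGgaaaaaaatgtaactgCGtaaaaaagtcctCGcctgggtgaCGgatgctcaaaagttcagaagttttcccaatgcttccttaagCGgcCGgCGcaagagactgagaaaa
Drd2: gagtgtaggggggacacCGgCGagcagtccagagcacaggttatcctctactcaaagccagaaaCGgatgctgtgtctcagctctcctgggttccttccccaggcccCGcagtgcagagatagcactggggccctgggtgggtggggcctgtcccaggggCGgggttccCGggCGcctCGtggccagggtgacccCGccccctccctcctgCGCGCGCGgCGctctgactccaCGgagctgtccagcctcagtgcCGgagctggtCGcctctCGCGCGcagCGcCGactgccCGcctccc
Slc32a1: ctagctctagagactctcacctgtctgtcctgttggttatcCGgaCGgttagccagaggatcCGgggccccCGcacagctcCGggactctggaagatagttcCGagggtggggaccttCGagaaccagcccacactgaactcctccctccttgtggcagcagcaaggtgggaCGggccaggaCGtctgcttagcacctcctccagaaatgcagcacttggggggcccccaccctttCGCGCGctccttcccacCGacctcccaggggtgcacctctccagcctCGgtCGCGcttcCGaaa
Tac1: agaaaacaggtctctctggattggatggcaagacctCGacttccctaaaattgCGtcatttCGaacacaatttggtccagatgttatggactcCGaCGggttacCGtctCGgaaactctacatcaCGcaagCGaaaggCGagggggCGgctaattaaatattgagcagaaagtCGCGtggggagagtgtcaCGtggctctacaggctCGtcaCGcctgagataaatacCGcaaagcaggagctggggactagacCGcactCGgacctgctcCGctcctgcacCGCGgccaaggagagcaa
Kcnc1: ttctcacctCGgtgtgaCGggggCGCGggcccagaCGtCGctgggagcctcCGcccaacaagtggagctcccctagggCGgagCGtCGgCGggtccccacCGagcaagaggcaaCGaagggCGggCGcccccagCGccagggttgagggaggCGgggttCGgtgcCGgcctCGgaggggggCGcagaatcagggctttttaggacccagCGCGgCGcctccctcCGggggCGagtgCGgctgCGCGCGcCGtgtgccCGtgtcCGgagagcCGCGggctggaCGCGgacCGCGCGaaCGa
They hold 32, 23, 17, 22 and 41 CG dinucleotides in that order. Over all 32851 promoters of that table, 94.6% held at least 1 CG and the median was 7. All 5 are above that median, but 31.4% of all promoters of the table held 17 or more. Only 4026 of the 5330 members (75.5%) had a promoter in the table, so a comparison of CG content between arrangements is void and none is given. Region positions from here on are those of the deposited lists, build mm9, and are not on the coordinates of these sequences.

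Nested and staggered pairs made up most of the members. The H3K4me3 region was nested in the H3K27me3 region at 2490 symbols, 46.7% of the members (95% exact interval 45.4% to 48.1%), and staggered at 2294 symbols, 43.0% (41.7% to 44.4%). It enclosed the H3K27me3 region at 244 symbols (4.58%), lay beside it at 262 (4.92%) and was apart at 40 (0.750%). The share apart moved with the pairing rule, to 2.28% in the upper 50% of both lists by score, 1.78% when each symbol took its highest-scoring regions, 0.450% when a gap of 10000 bp still counted as flanking and 0.238% when lines were paired by transcript accession. The members rest on 4813 distinct H3K4me3 regions and 4384 distinct H3K27me3 regions in 4835 distinct pairs, because neighbouring genes share regions. The order turned in the upper 50% of both lists by score, where 25.2% of 832 symbols were nested and 63.8% staggered. Among all 13142 distinct H3K4me3 regions, 2361 (18.0%) lay wholly inside an H3K27me3 region. All intervals cover counting error only, and with 1 library for each antibody no difference in this text has a replicate check or a test.

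**Figure D1:**
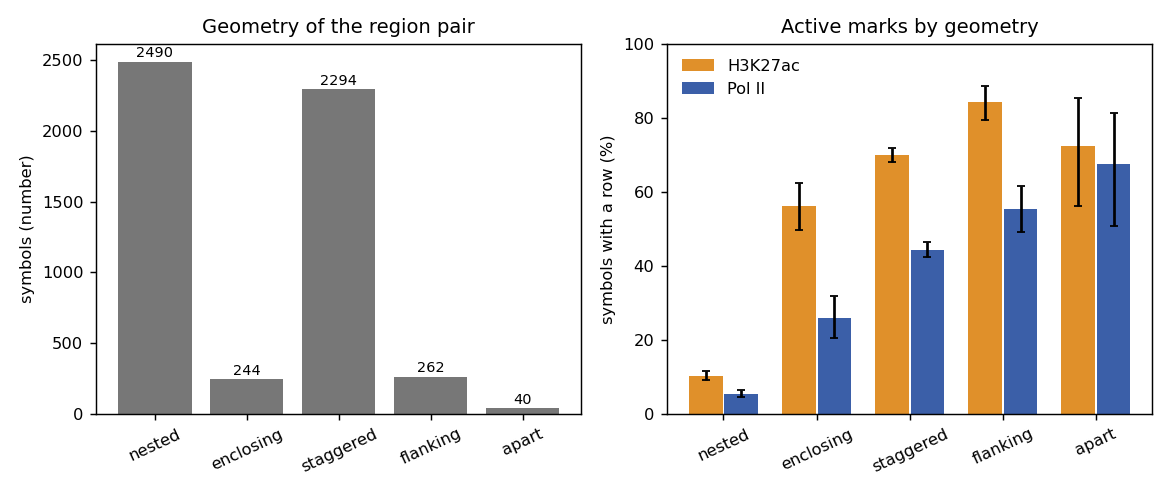
The left panel gives the number of symbols in each arrangement, and the right panel the percentage of those symbols with an H3K27ac or a Pol II region, with 95% exact intervals as bars. Nested symbols had an H3K27ac region in 10.2%, against 69.97% of staggered symbols.

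The arrangements differed in the active marks that were not used to define them. Among all symbols with H3K4me3, 74.7% had an H3K27ac region and 60.7% a Pol II region, and among the members 2245 (42.1%) and 1386 (26.0%) had one. H3K27ac was listed at 253 nested symbols (10.2%, interval 9.001% to 11.4%) and at 1605 staggered symbols (69.97%, 68.0% to 71.8%). Pol II was listed at 133 nested symbols (5.34%, 4.49% to 6.30%) and at 1018 staggered symbols (44.4%, 42.3% to 46.4%). Enclosing symbols lay between them, with H3K27ac at 56.1% (49.7% to 62.5%) and Pol II at 25.8% (20.4% to 31.8%). Flanking symbols had H3K27ac at 84.4% (79.4% to 88.5%) and Pol II at 55.3% (49.1% to 61.5%). The intervals of nested and staggered symbols do not overlap for either mark, but they treat symbols that share a region as independent. With each distinct pair counted once, H3K27ac was at 10.3% of nested and 71.3% of staggered pairs, and Pol II at 5.37% and 44.7%. The 9722 symbols with H3K4me3 and no H3K27me3 had H3K27ac in 92.6% and Pol II in 79.7%, above the flanking symbols. In the upper 50% of both methylation lists by score, with the H3K27ac and Pol II lists kept whole, H3K27ac was at 50% of nested and 91.5% of staggered symbols, and Pol II at 18.6% of nested and 71.2% of staggered symbols. Neither active mark was listed at 2175 nested symbols (87.3%) and at 658 staggered symbols (28.7%).

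**Figure D2:**
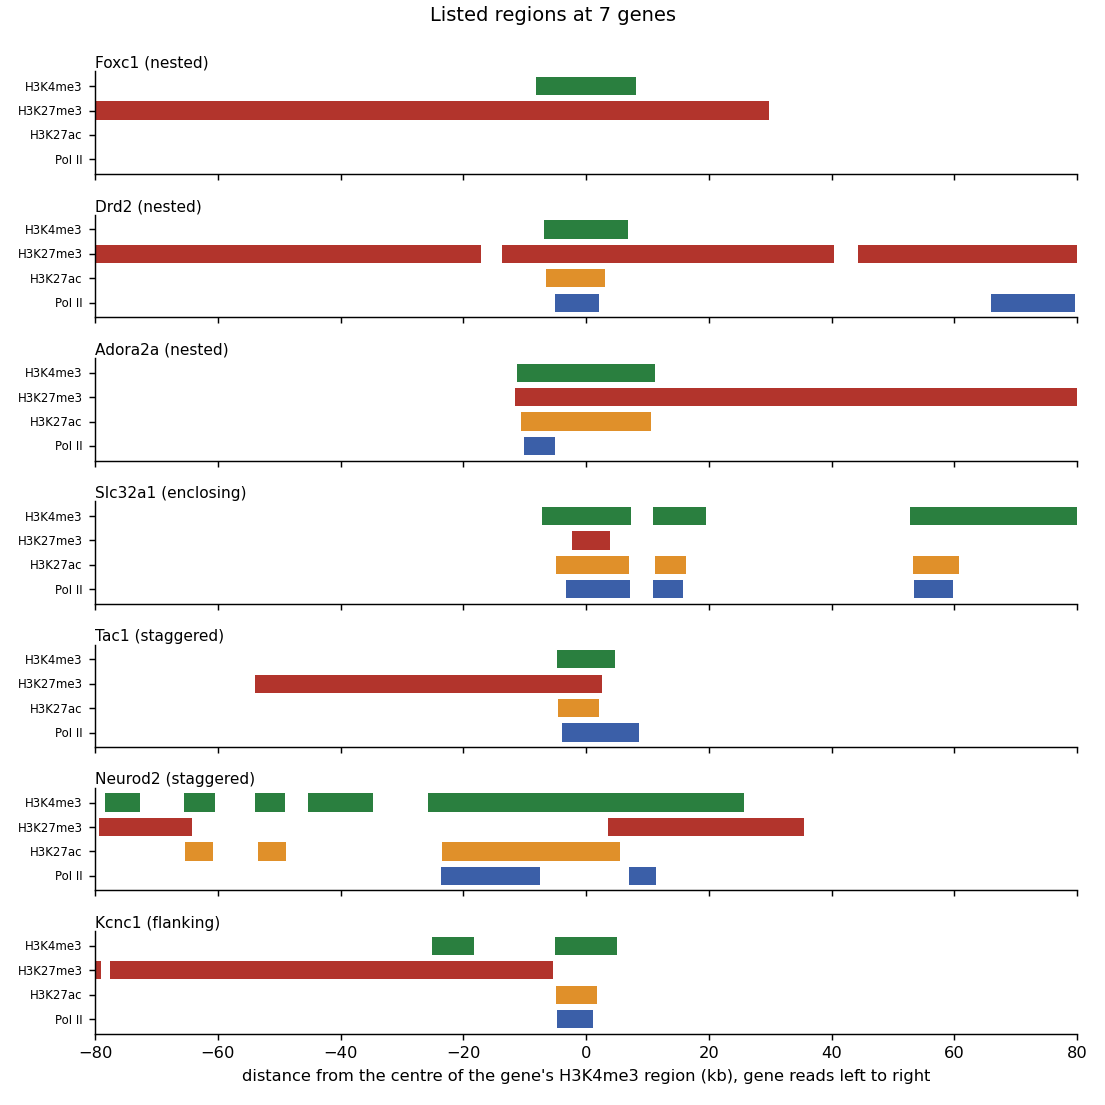
Regions of the 4 lists at 7 genes, drawn to scale against the distance from the centre of the gene's H3K4me3 region in kb, with each gene turned to read left to right. Foxc1 has H3K4me3 inside H3K27me3 and no active mark, Drd2 and Adora2a have all 4 marks stacked, and at Kcnc1 the H3K27me3 region ends 300 bp before the H3K4me3 region.

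Single genes show what these arrangements look like. At Foxc1, H3K4me3 covered 16.2 kb (chr13:31889801-31906000, mm9) inside an H3K27me3 region of 141.2 kb (chr13:31786501-31927700), the second highest scoring of its list. At Tac1, H3K4me3 covered 9.5 kb (chr6:7502601-7512100) and a 56.6 kb H3K27me3 region (chr6:7453401-7510000) came in from upstream and shared 7.4 kb with it. The Tac1 H3K27ac region of 6.6 kb lay wholly inside the H3K27me3 region, while 52.8% of its Pol II region did. At Slc32a1, a 14.5 kb H3K4me3 region (chr2:158430101-158444600) held an H3K27me3 region of 6.2 kb (chr2:158435001-158441200) whose score was in the lowest 5.70% of its list. At Kcnc1, a 72.3 kb H3K27me3 region (chr7:53576801-53649100) stopped 300 bp short of a 10.1 kb H3K4me3 region (chr7:53649401-53659500).

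Ranks of the scores followed the arrangement. The deposited score has no stated scale, so each region was given its percentile among the distinct regions of its own list, 0 being the lowest score and 100 the highest. Nested symbols had a median H3K4me3 percentile of 16.4 (quartiles 8.18 to 27.7) and a median H3K27me3 percentile of 85.8 (71.1 to 94.2). Staggered symbols had a median H3K4me3 percentile of 43.0 (25.2 to 63.1) and a median H3K27me3 percentile of 52.1 (28.5 to 75.6). Enclosing symbols had medians of 35.2 for H3K4me3 and 24.5 for H3K27me3, and flanking symbols had 49.9 and 37.0. Nested H3K4me3 regions were thus low in their own list and sat in H3K27me3 regions high in theirs. Their H3K27me3 regions were also wider, with a median of 33.55 kb against 10.6 kb for staggered pairs. The part of width in the H3K27me3 ranks was not tested. Symbols with H3K4me3 alone had a median H3K4me3 percentile of 66.2, above every arrangement of the members, and symbols with H3K27me3 alone had a median H3K27me3 percentile of 46.7. Of 1308 members with H3K4me3 in the lowest and H3K27me3 in the highest 25% of their lists, 1169 (89.4%) were nested. Of 94 members with H3K4me3 in the highest and H3K27me3 in the lowest 25%, none was nested, 66 were staggered and 15 enclosing. Of 135 members in the highest 25% of both lists, 31 were nested.

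**Figure D3:**
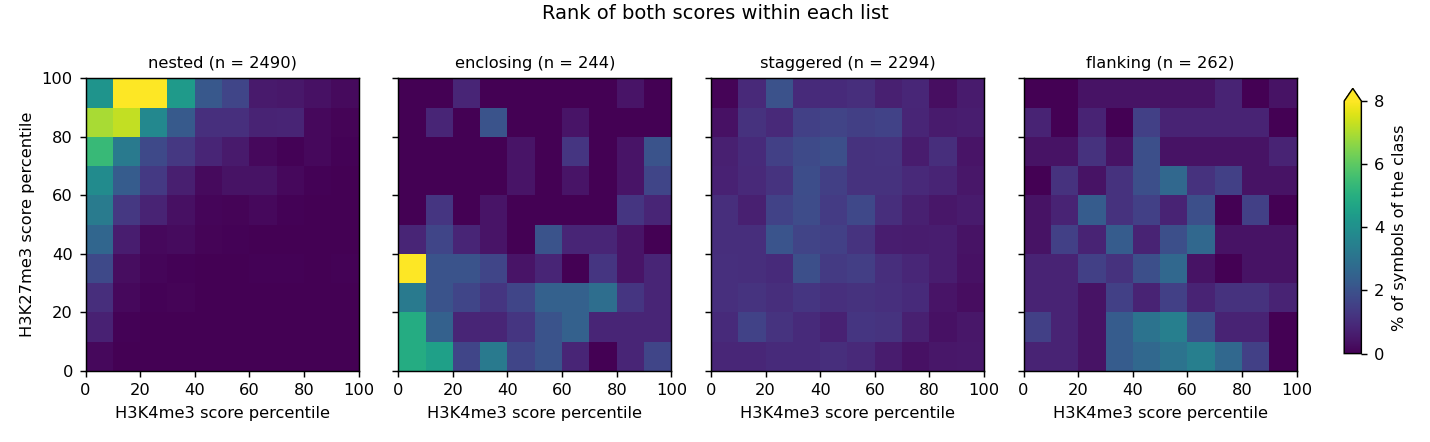
Percentile of the H3K4me3 score (horizontal) against percentile of the H3K27me3 score (vertical) for 4 arrangements, with colour for the percentage of the arrangement's symbols in each square. The brightest colour stands for 8% or more. Nested symbols gather at low H3K4me3 and high H3K27me3 ranks, and staggered symbols spread over the whole plane.

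The relation between both ranks differed between arrangements. Spearman's rho between both scores was 0.35 over the 2490 nested symbols and 0.07 over the 2294 staggered symbols, and -0.13 over all members. These are descriptions across symbols that share regions and the same 2 libraries. Id4, a helix-loop-helix inhibitor of differentiation, had percentiles of 97.0 for H3K4me3 and 2.82 for H3K27me3, and was enclosing like Slc32a1. At the other end Ins2, an insulin gene, had percentiles of 0.282 for H3K4me3 and 97.1 for H3K27me3, and H2-T3, a class I histocompatibility gene, had 0.974 and 98.005, and both were nested. Bcl2l11, which encodes the pro-apoptotic protein Bim, was nested and ranked high on both, with percentiles of 86.9 for H3K4me3 and 96.9 for H3K27me3, and had neither active mark.

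The difference in active marks between nested and staggered symbols varied with the rank of H3K4me3. Over all symbols, nested minus staggered came to -59.8 percentage points for H3K27ac and -39.0 for Pol II. Within 5 bins of H3K4me3 percentile it was negative in all 5, averaging -36.0 points for H3K27ac (from -60.9 to -15.2) and -31.3 points for Pol II (from -52.3 to -1.97). In the lowest bin, percentiles 0 to 20, H3K27ac was at 2.42% of 1487 nested symbols and 17.6% of 420 staggered symbols. In the bin from 40 to 60 it was at 27.5% of 207 nested and 88.4% of 586 staggered symbols, a difference of -60.9 points and thus no smaller than over all symbols. For Pol II the differences in the bins from 40 to 60 and from 60 to 80, -46.1 and -52.3 points, were larger than over all symbols. In the highest bin H3K27ac was at 77.8% of 27 nested symbols (57.7% to 91.4%) and 97.1% of 240 staggered symbols (94.1% to 98.8%). Within bins of H3K27me3 width, from 5 to 10 kb up to over 50 kb, the H3K27ac difference averaged -60.6 points (from -64.9 to -58.5), close to that over all symbols. The bin up to 5 kb was left out because it held fewer than 20 nested symbols.

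**Figure D4:**
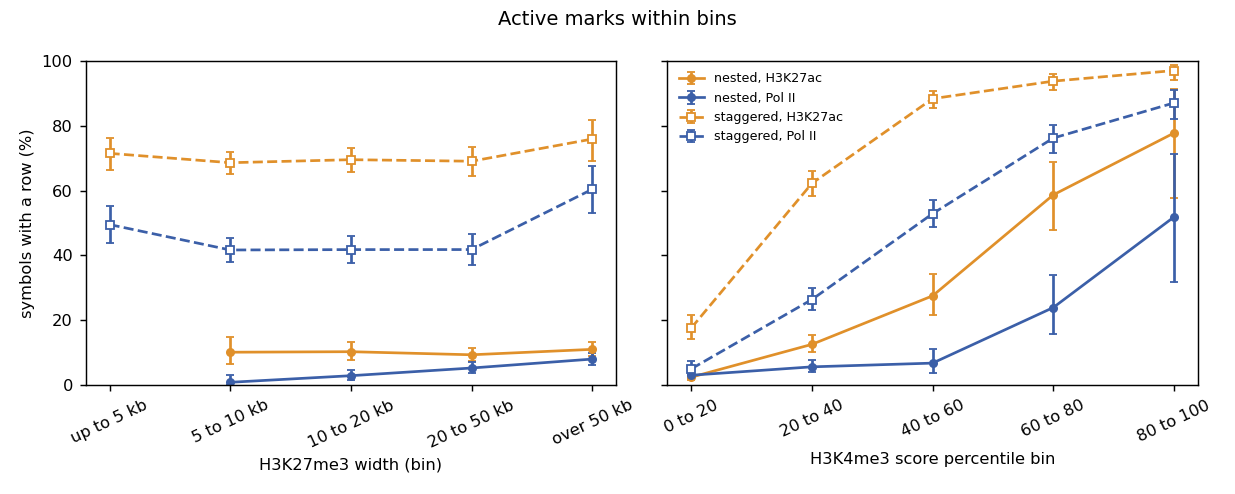
Percentage of symbols with an H3K27ac region (orange) or a Pol II region (blue) in bins of H3K27me3 width (left) and of H3K4me3 score percentile (right), for nested symbols (solid lines, filled circles) and staggered symbols (dashed lines, open squares), with 95% exact intervals. The nested points lie below the staggered points of the same mark in every bin, by 1.97 points for Pol II in the lowest H3K4me3 bin, where the intervals overlap.

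A nested H3K4me3 region usually sat well inside its H3K27me3 region. It covered a median of 20.6% of the H3K27me3 region (quartiles 10.7% to 38.5%), with median widths of 5.7 kb for H3K4me3 and 33.55 kb for H3K27me3, while staggered pairs had 6.1 and 10.6 kb. A nested region needs a wider H3K27me3 region around it, so this difference in width is in part set by the definition. The distance from the H3K4me3 region to the nearer end of the H3K27me3 region had a median of 5.7 kb (1.5 to 14.7 kb). The centre of the H3K4me3 region fell in the middle 50% of the H3K27me3 region at 1755 nested symbols (70.5%). H3K27me3 reached further upstream of the H3K4me3 region at 1155 nested symbols and further downstream at 1317, with median reaches of 10 kb upstream and 12.1 kb downstream. At the border of the class, 91 nested regions shared an end with the H3K27me3 region exactly, and 58 staggered H3K4me3 regions ran out by no more than 100 bp, which is the step of the grid of region bounds.

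Most staggered pairs with a long overhang of H3K4me3 had H3K27me3 on the upstream side. Along the direction of transcription, the H3K27me3 region reached out upstream of H3K4me3 at 1604 staggered symbols, 69.9% (68.0% to 71.8%), and downstream at 690. The side turned with the length by which H3K4me3 ran out of H3K27me3. At the 478 symbols where it ran out by at most 2 kb, H3K27me3 was upstream at 37.4% (33.1% to 41.96%), and with 2 to 4, 4 to 6 and over 6 kb at 71.9%, 80.9% and 83.0%. The flanking symbols leaned the same way, with 206 of 262 (78.6%) having H3K27me3 upstream. Staggered symbols with H3K27me3 upstream had H3K27ac in 79.2% (77.2% to 81.2%) and Pol II in 53.1% (50.6% to 55.5%). Those with H3K27me3 downstream, towards the gene body, had H3K27ac in 48.4% (44.6% to 52.2%) and Pol II in 24.2% (21.1% to 27.6%). The upstream minus downstream difference was 30.8 points for H3K27ac and 28.9 for Pol II. The median H3K4me3 percentile was 47.7 in the upstream group and 30.4 in the downstream group, and the median H3K27me3 percentile was 52.1 in the upstream group and 51.8 in the downstream group. Within the 5 bins of H3K4me3 percentile the difference was positive in all 5 and averaged 13.6 points for H3K27ac (6.80 to 22.7) and 16.3 for Pol II (1.59 to 24.7). The lists keep only regions near a start, with a stated window of 3 kb on both sides, so H3K27me3 that begins deeper in a gene is not in them. The part of that window in the upstream share was not tested.

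**Figure D5:**
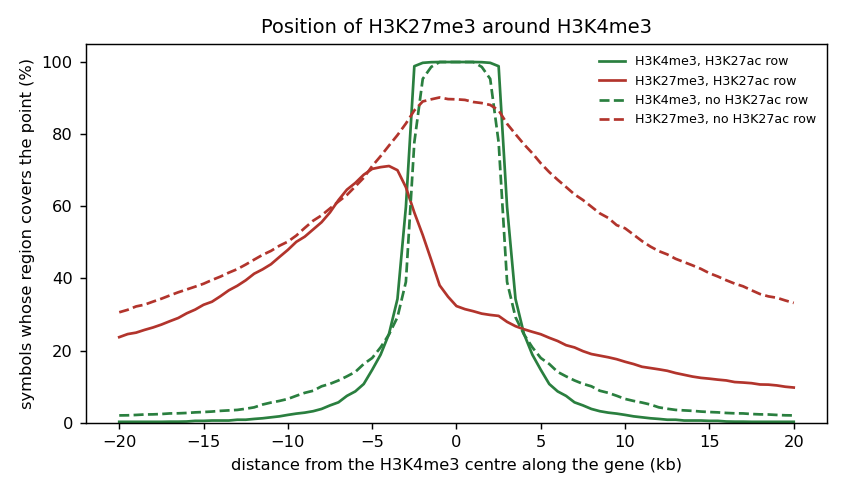
Percentage of symbols whose paired H3K27me3 region (red) or H3K4me3 region (green) covers a point, against the distance in kb from the centre of the H3K4me3 region along the gene, for members with an H3K27ac region (solid lines) and without one (dashed lines). With H3K27ac, H3K27me3 covers 71.2% of symbols at 4 kb upstream, 32.4% at the centre and 25.9% at 4 kb downstream, and without H3K27ac 76.9%, 89.7% and 77.2%.

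The position of H3K27me3 around the H3K4me3 centre shows both features at once. Among 2241 members with H3K27ac and both regions on the same chromosome, H3K27me3 covered the point 4 kb upstream at 71.2%, the centre at 32.4% and the point 4 kb downstream at 25.9%. Among 3085 members without H3K27ac it covered these points at 76.9%, 89.7% and 77.2%. The groups were close at 4 kb upstream and beyond, and lay far from each other nearer the centre and downstream, with 52.0% of members with H3K27ac and 89.1% of those without at 2 kb upstream. H3K4me3 itself, which is the same on both sides of its own centre, covered the points at 4 kb in 24.7% of members with H3K27ac and 24.5% of those without. Its cover differed at other distances, with 59.8% and 39.1% at 3 kb, and 8.70% and 14.1% at 6 kb.

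How far H3K4me3 ran out of H3K27me3 went with the active marks at staggered symbols. The overhang had a median of 4.2 kb (quartiles 2.6 to 5.4 kb). At the 197 symbols where it was at most 0.5 kb, H3K27ac was listed for 30.96% (24.6% to 37.9%) and Pol II for 7.11% (3.94% to 11.6%). With an overhang over 0.5 and up to 2 kb H3K27ac was at 40.2% of 281 symbols, over 2 and up to 4 kb at 62.9% of 580, and over 4 and up to 6 kb at 86.7% of 866. Over 6 kb it was at 85.1% of 370 symbols (81.1% to 88.6%) and Pol II at 71.4% (66.5% to 75.9%). The median H3K4me3 percentile moved along with the overhang, at 22.9, 26.0, 34.4, 50.2 and 62.8 over these 5 bins, and the share with H3K27me3 upstream was 39.1%, 36.3%, 71.9%, 80.9% and 83.0% over the same bins. With H3K27me3 upstream, H3K27ac was at 83.9% of 1425 symbols with an overhang over 2 kb and 42.5% of 179 with a shorter one. With H3K27me3 downstream it was at 60.4% of 391 and 32.8% of 299 symbols. The part of the H3K4me3 rank in the trend was not tested.

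Where staggered symbols had an active mark, a slightly smaller share of that mark than of H3K4me3 lay in H3K27me3. The active marks were also narrower there. Median widths were 5 kb for H3K27ac against 6.2 kb for H3K4me3, and 4.7 kb for Pol II against 6.5 kb. The part of width in these shares was not tested. At the 1605 with H3K27ac, a mean of 29.3% of the H3K27ac bases and 32.97% of the H3K4me3 bases lay in the H3K27me3 region. The H3K27ac share was the lower of both at 1060 symbols, the higher at 538 and equal at 7. At the 1018 with Pol II the means were 24.2% of Pol II bases and 28.3% of H3K4me3 bases, with Pol II lower at 654 symbols and higher at 361. H3K27ac shared no base with the H3K27me3 region at 188 of these symbols (11.7%) and Pol II at 177 (17.4%). Neurod2, a basic helix-loop-helix factor of glutamatergic neurons, is an example with H3K27me3 downstream, where 43.1% of a 51.5 kb H3K4me3 region but 6.57% of a 28.9 kb H3K27ac region lay in H3K27me3. At the 137 enclosing symbols with H3K27ac, the H3K27ac share was the higher of both at 96 and the lower at 41. At nested symbols the active marks mostly lay inside. Of the 253 with H3K27ac, 222 (87.7%) had that region wholly inside H3K27me3 too, and of the 133 with Pol II 115 (86.5%). H3K27ac shared no base with H3K27me3 at 15 nested symbols (5.93%) and Pol II at 7 (5.26%). Counted by bases shared with the H3K4me3 region in place of a line, H3K27ac was at 9.12% and Pol II at 4.74% of nested symbols. The H3K27ac regions of the 253 ranked low in their list, with a median percentile of 10.8.

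Several genes that divide the pathways of spiny neurons were nested and had both active marks at once. Of the 71 nested symbols with both H3K27ac and Pol II (2.85% of nested symbols), 9 belonged to the direct-pathway or indirect-pathway lists, which had 11 nested symbols in all. At some others of the 71, such as Oxr1 and Deaf1, both active regions lay apart from the paired H3K27me3 region. Drd1a, the older symbol of the dopamine D1 receptor gene, had 10.9 kb of H3K4me3 (chr13:54142601-54153500) inside 38.7 kb of H3K27me3 (chr13:54127301-54166000). Its H3K27ac region of 11.4 kb and its Pol II region of 16.3 kb were inside H3K27me3 as well. Drd2 had 13.7 kb of H3K4me3 (chr9:49146201-49159900) inside 54.2 kb of H3K27me3 (chr9:49139301-49193500), with H3K27ac and Pol II nested. Both receptor genes thus had regions of the other 3 marks wholly inside H3K27me3, although each is known to be expressed mainly in one of the pathways. Adora2a, the adenosine receptor partner of Drd2, and Penk, the enkephalin precursor, were nested 300 and 500 bp from an end of their H3K27me3 regions. The Penk H3K27ac region ran out of H3K27me3, with 88.4% of it inside. Slc35d3, Ebf1 and Isl1, on the direct-pathway list, and Sp9 and Gpr6, on the indirect-pathway list, were also nested with both active marks. Among the 11 nested symbols the H3K4me3 percentile had a median of 42.8, from 22.6 for Eya1 to 88.6 for Slc35d3. The median was 16.4 for all nested symbols and 59.5 for the 71 nested symbols with both active marks. Pdyn, the dynorphin precursor, was nested with neither active mark, and Eya1 was nested with H3K27ac alone. Tac1 and Sfxn1 were staggered, Chrm4, the muscarinic M4 receptor gene, was enclosing, and Ptprm was staggered. These lists were chosen with results of these libraries known, so their counts are descriptions.

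Of 24 listed symbols shared by both pathways 6 were members, where 27.7% of all symbols are, and 5 of these were nested. Six3 and Zfp503, factors of striatal development, were nested with both active marks. Dlx1 and Dlx2, paired homeobox genes of GABAergic progenitors, shared a 23.1 kb H3K4me3 region inside 44.7 kb of H3K27me3, and a 4.7 kb H3K27ac region was listed for Dlx2 alone. Gsx2, a factor of the embryonic ganglionic eminence, had neither active mark.

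Transcription factors of other regions and tissues were mostly nested, as were the pathway genes, but the nested factors had no H3K27ac. All 39 Hox symbols, the genes of body-axis patterning, were nested, in only 4 H3K27me3 regions, and none had H3K27ac or Pol II. Their median percentiles were 17.1 for H3K4me3 and 99.8 for H3K27me3. Of 47 members on the list of non-neural factors 46 were nested, and of 50 on the list of factors of other brain regions 44 were, against 46.7% of all members. None of these 90 nested symbols had H3K27ac, against 10.2% of nested symbols, while 28 had Pol II (31.1%), against 5.34%. Of the 62 nested symbols with Pol II and no H3K27ac, these 28 made up 45.2%. Those 62 had a median H3K4me3 width of 17 kb and a median H3K27me3 percentile of 98.5, against 5.6 kb and 86.0 for nested symbols with neither active mark.

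Among markers of other cell types, those that were members were mostly nested, where 46.7% of all members are. Of 15 interneuron symbols 11 were members, among them Chat, Sst, Npy and Pvalb, and all 11 were nested, with H3K27ac at 1 and Pol II at 1. Of 16 endothelial and mural symbols 9 were members, and all 9 were nested with no active mark. Of 14 oligodendrocyte symbols 4 were members and of 15 microglia symbols 2, so most of these markers had no pair of both marks. These 6 were nested with no active mark, and the microglia genes C1qa and C1qc share 1 pair of regions. Of 12 astrocyte symbols 8 were members and 6 of them nested, 1 with H3K27ac. Of 14 glutamatergic members 12 were nested, of which 2 had H3K27ac and 6 Pol II. Of 40 members among Wnt, Bmp, Fgf and other signalling genes 31 were nested, 6 of them with H3K27ac and 2 with Pol II.

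Of 26 Polycomb symbols 6 were members, near the 27.7% of all symbols, and none was nested. Ezh1, a catalytic subunit of Polycomb repressive complex 2, was staggered with Pcgf1, Pcgf3, Cbx2 and Cbx8. All 6 had H3K27ac and 5 had Pol II, against 42.1% and 26.0% of all members. Of the 24 Polycomb symbols in any list, members or not, 23 had H3K27ac and 21 Pol II. The 6 members had median percentiles of 74.6 for H3K4me3 and 88.0 for H3K27me3. A further list held 20 symbols of H3K4 methyltransferase subunits and of demethylases of H3K4 and H3K27. Of these, 15 were in any list, and Ash2l, a core subunit of the H3K4 methyltransferases, was the only member. Its regions lay 3400 bp apart. Of 20 housekeeping symbols 2 were members, both staggered, and of 20 pan-neuronal symbols 3 were members, of which 1 was nested. Of 20 immediate early genes, which respond to neuronal activity, 5 were members. Fos, Egr2 and Nr4a3 were staggered, and Nr4a2 and Ier2 were nested.

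Most H3K27me3 regions held no whole H3K4me3 region. Of 8219 distinct H3K27me3 regions, 6086 (74.05%) held none, 1951 (23.7%) held 1, 149 (1.81%) held 2, 22 held 3, 10 held 4 and 1 held 6. The 2133 regions with at least 1 were 26.0% (25.01% to 26.9%), and the 182 with at least 2 were 2.21%. Counting every H3K4me3 region that shares a base, 4295 (52.3%) had at least 1 and 449 (5.46%) at least 2. Wider regions held more of them. At least 1 was inside 0.774% of regions up to 5 kb, 10.5% of regions of 5 to 10 kb, 23.5% of those of 10 to 20 kb, 41.9% of those of 20 to 50 kb, 63.8% of those of 50 to 100 kb and 79.6% of those over 100 kb. For each 100 kb of H3K27me3, the count was 0.19, 1.44, 1.67, 1.44, 1.08 and 0.64 over the same widths. The share with at least 1 grew with every step in width, while the number for a given length was highest at 10 to 20 kb and lower in the widest regions. An H3K27me3 region can hold only H3K4me3 regions no wider than itself, and the median H3K4me3 width was 6.4 kb. The rise in share and the low count in regions up to 5 kb are thus in part set by the definition.

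H3K4me3 regions that shared an H3K27me3 region had few active marks. Of the 1951 that were alone inside one, 9.99% touched an H3K27ac region and 5.07% a Pol II region. Of the 410 with at least 1 other inside the same H3K27me3 region, 4.63% (2.81% to 7.14%) touched H3K27ac and 2.44% Pol II. At 243 H3K4me3 regions, separate H3K27me3 regions lay on both sides without covering them whole. Each overlapped an end or lay less than 3 kb from it, and 52.7% of the 243 touched H3K27ac. Of 8474 H3K4me3 regions that touched no H3K27me3 region, 91.3% touched H3K27ac and 76.7% Pol II.

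At 11 H3K27me3 regions, 88.1 to 936.8 kb wide, 4 or more H3K4me3 regions lay inside. Of these 46 H3K4me3 regions 4 touched H3K27ac, in 3 of the 11, among them 2 in the region over Lyl1 and Nfix, and Pol II was touched by none. The one with 6 spanned 88.1 kb over Pcdhb2 to Pcdhb8, clustered protocadherin genes of neuronal cell recognition, and H3K4me3 covered 76.6% of it. The H3K4me3 regions there were 10.2 to 12.2 kb wide and had percentiles from 10.5 to 14.5. A 384.3 kb region over the Hoxb cluster (chr11:95944701-96329000) held 4, among them 132.8 kb over Hoxb1 to Hoxb9 and 61.4 kb at Hoxb13, covering 53.5% of it. A 337.4 kb region around Gata4 (chr14:63799201-64136600), a factor of heart and endoderm, ranked seventh by score and held 4 that covered 15.6%. A 224.9 kb region over Gsx1, Pdx1 and Cdx2 (chr5:147919301-148144200), a ParaHox cluster, held 4 covering 34.8%. A 201.3 kb region over H2-T3 and H2-T10 (chr17:36191001-36392300) held 4 covering 16.0%.

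Pairs that shared no base were mostly next to each other. Of 262 flanking pairs 205 had a gap of at most 500 bp, 45 of them a gap of 0, and the median was 200 bp. Of the 40 symbols apart, 4 had their regions on different chromosomes, namely Gm5506, Gm5512, Gm5643 and Gm5801, each under a single symbol. The others had a median gap of 13.9 kb, up to 220.6 kb at Chn2, which encodes a Rac GTPase-activating protein. H3K27ac was listed at 72.5% of the symbols apart and Pol II at 67.5%.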

How the data were processed

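The series holds 5 libraries from sorted striatal nuclei: 4 antibodies with 1 library each and 1 input. The authors deposited, for each antibody over input, a list of regions near transcription starts, with a gene symbol, a strand and a score for each region. The scale of the deposited score is not given in the sources used here, so it served only to rank regions within a list. Bowtie 0.12.7, MACS 1.4 and build mm9 are named per the submitters' processing notes, without their roles. Read depth is unknown, and region bounds lie on a grid of 100 bp. Listed regions score 2.00 or more and are at least 2500 bp wide.

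Lines without a symbol (36 for H3K4me3 and 29 for H3K27me3) were left out of the pairing. Pairs were sorted by overlap, with a gap of up to 3 kb counted as flanking. H3K27ac and Pol II were read as present where the symbol had a line. Shares carry 95% Clopper-Pearson intervals, and no test was made. Symbols that share a region are not independent. Genes were named as the leading symbols of each arrangement by the sum or the difference of both percentiles, as the first symbols of each gene list, and as the H3K27me3 regions with the most H3K4me3 regions. Members and the 18 gene lists were chosen with earlier results of these data known, and genes drawn as examples were chosen after their values were seen. Python 3.11.15, pandas 2.3.3 and scipy 1.17.1 were used, and the sorting was tested on simulated data. Results on some named genes are not reported here.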

Additional observations from a re-analysis of the deposited data

How the results depend on the processing

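Of 103 recomputed values 66 stayed within the limits set for a change, 36 moved and 1 changed direction. Some of the 66 could not change by construction, so that count does not measure how stable the results are. A flanking gap of up to 10000 bp cannot alter the nested, enclosing or staggered shares. An allowed overhang of 500 bp cannot alter the flanking or apart shares. Letting H3K4me3 run out by 500 bp put the nested share at 50.9% and the staggered share at 37.6%, a difference of 13.2 points, against 3.68 as reported. With only the upper 50% of each list by score (832 symbols), the nested share was 25.2% and the staggered share 63.8%, so that the difference turned to -38.6 points, and 4.55% and 0.0243% of H3K27me3 regions held at least 1 and at least 2 H3K4me3 regions. H3K27ac and Pol II were then at 35.4% and 23.9% of staggered symbols and at 9.52% and 6.19% of nested ones. With the H3K27ac and Pol II lists kept whole, a setting chosen after seeing the data, they were at 91.5% and 71.2% of staggered and 50% and 18.6% of nested symbols. With every list, those of H3K27ac and Pol II included, cut to its upper 50%, H3K27me3 lay upstream at 78.0% of staggered symbols. H3K27ac was then at 38.4% and Pol II at 26.3% of these, against 24.8% and 15.4% of those with it downstream. This recomputation by side was also chosen after seeing the data. With 1 shared base in place of full nesting, 52.3% and 5.46% of H3K27me3 regions held at least 1 and at least 2. With H3K4me3 regions that serve genes of 1 strand only, the upstream share was 72.8%, and 42.7% of downstream symbols had H3K27ac and 16.98% Pol II, an alternative chosen after seeing the data. Binning by H3K4me3 rank or by H3K27me3 width, also chosen after seeing the data, put the nested minus staggered difference at -36.0 points for H3K27ac (rank) and at -31.3 (rank) and -42.2 (width) for Pol II, and the upstream minus downstream difference at 13.6 and 16.3 (rank). Apart from the settings whose construction shows it, the cause was not tested. Splitting by CG content was not run, because too few members had a promoter sequence. No paired analysis was possible because each antibody has 1 library. Without replicates or read counts, the error of a region's bounds and score is unknown, and a region under the deposited minimum cannot be told from none.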
